A study of Canis lupus familiaris with 29 samples.

Results

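Some genes have a similar average level in T-cell and B-cell lymphoma and yet differ widely from one T-cell tumour to the next. This group of 150 genes was chosen for that property from an RNA sequencing table of 16382 Ensembl gene IDs, of which 11552 reached 1 FPKM or more in 5 or more of 29 libraries. FPKM is the number of sequenced fragments of a gene scaled to its length and to the size of the library. Of these 11552 genes, 10230 had class means of log2(FPKM + 1) less than 1 apart and at least some overlap between the classes. The 150 members are those with the largest excess of the standard deviation (SD) over the T-cell libraries above the SD over the B-cell libraries. Means and SDs of both classes chose the members, so these are given as a description only.

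All 29 samples were lymphomas of golden retrievers, 20 called B-cell and 9 called T-cell in the labels. The B-cell group held 9 female and 11 male dogs, 17 of them neutered and 3 intact, aged 2.0 to 14.0 years at diagnosis. The T-cell group held 6 female and 3 male dogs, 6 neutered and 3 intact, aged 4.5 to 11.9 years. The labels name no treatment, mutation or histological subtype, and do not say how the class of a tumour was determined. Nor do they say whether every library is from its own dog, and the p-values below cover only the spread from library to library.

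Lymphomas arise from lymphocytes, and the class of the malignant lymphocyte divides them into B-cell and T-cell disease. In dogs, as in people, T-cell lymphoma is a mixed group: it includes indolent disease of mature T cells, such as T-zone lymphoma, and aggressive peripheral or precursor forms. A lymphoma sample also holds other cells of the lymph node, such as macrophages, endothelium and stroma. In such bulk samples fewer cells of a type and less RNA per cell cannot be told apart. The table names genes by Ensembl ID only, and 0 of the IDs could be matched to a symbol here. Roles of the members are therefore not given, the genes are described by their behaviour, and the labels could not be checked against known T-cell or B-cell markers.

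T-cell library 5 was the lowest of its class in relative depth and summed FPKM. Neither gap was past Dixon's 95% limit for an outlying value. Library 6 had the lowest share of genes that followed its label, among genes that set the other T-cell libraries apart from the B-cell class. Relative depth, read from the smallest steps of the low values and set to 1 for B-cell library 1, was 0.522 in T-cell library 5. It ran from 1.03 to 1.72 in the other T-cell libraries, with 1.62 in library 6, and from 0.930 to 2.22 in B-cell libraries. No fragment totals were used, and no counting error can be attached to a value. Library 5 also had the lowest summed FPKM of the T-cell libraries, 319067, where the others had 398760 to 530668. For library 6, the class label was read on genes chosen without it. Of 197 genes that lay above every B-cell library in each of the other 8 T-cell libraries, library 6 was also above in 59.9%. The same reading gave 85.5% to 98.3% for the other T-cell libraries. Of the genes that lay below every B-cell library in the remaining T-cell libraries, library 6 was also below in 60.2%, and the others in 73.9% to 95.6%. Library 6 thus followed its T-cell label on a smaller share of the genes read for it than any other T-cell library. The gene set differed for each library. The genes also above were 118 in every case, out of 120 to 138 for the others. The genes also below were 65 in every case, out of 108 for library 6 and 68 to 88 for the others. The T-cell label of library 6 could not be checked further here. Because 89 of the 150 members lie in the groups that library 6 marks, the main counts are also given without it.

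The members were spread over a wide range of levels. Their mean FPKM over the 29 libraries had a median of 21.4 and ran from 0.849 to 3697, where the median over all genes tested was 14.0. At least 100 FPKM on average was reached by 20 of the members and by 694 of the genes tested. As the rule requires, the spread of the members was wide over T-cell libraries and nearer that of other genes over B-cell libraries. The SD of log2(FPKM + 1) had a median of 1.51 over T-cell and 0.54 over B-cell libraries for the members, against 0.50 and 0.39 for all genes tested. The first member had SDs of 2.22 and 0.39. At the edge of the list the excess was 0.7493 for the last gene inside, with SDs of 1.29 and 0.54, and 0.7486 for the next gene outside, with 1.03 and 0.28. For 12 members (8%, against 3.87% of all genes tested) fewer than 5 B-cell libraries reached 1 FPKM, so that these genes passed the filter on low values only with the help of T-cell libraries. All 150 reached 1 FPKM in at least 1 B-cell library.

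**Figure D1:**
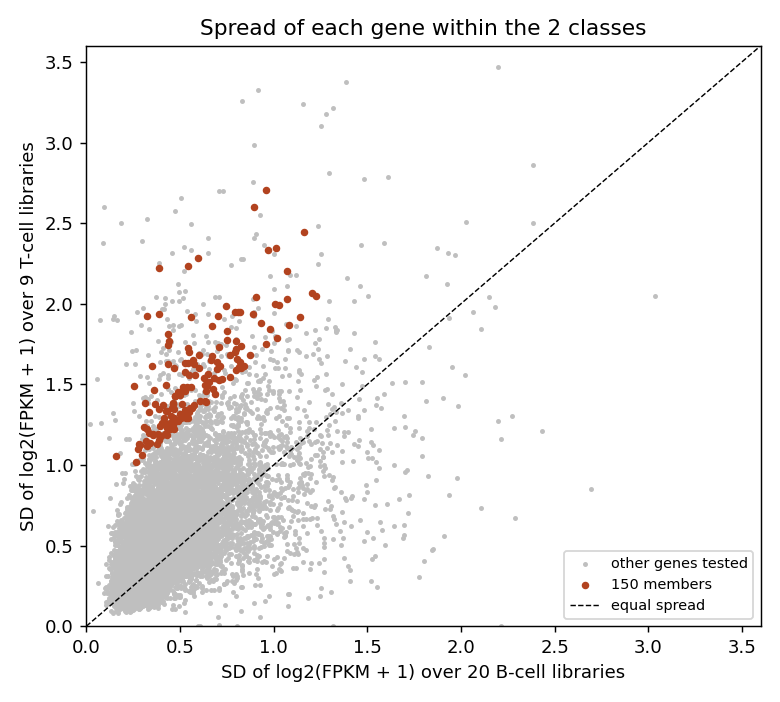
Each point is 1 gene of the 11552 tested, with its SD of log2(FPKM + 1) over the 20 B-cell libraries on the horizontal axis and over the 9 T-cell libraries on the vertical axis. The 150 members lie above the dashed line of equal spread because the rule took them from there. Grey points among or above them are genes that failed the conditions on the class means or on overlap, or whose T-cell SD exceeded the B-cell SD by less than that of the members.

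The members did not vary evenly over the 9 T-cell tumours. T-cell library 6 was the lowest of the 9 for 69 members (46.0%, against 28.6% of all genes tested) and the highest for 36 (24.0%, against 20.1%). Library 5 was the lowest for 30 members (20%, against 21.8%) and the highest for 15 (10%, against 21.5%). Each of the other 7 libraries was the lowest for 2 to 11 members (1.33% to 7.33%, against 2.91% to 11.4%), so that an uneven share was also seen in all genes tested. Set against the range of the 20 B-cell tumours, library 6 fell below all of them in 68 members (45.3%, against 20.4% of all genes) and rose above all of them in 37 (24.7%, against 18.3%). In the upward direction library 6 was not the leading one: library 2 rose above all B-cell tumours in 44 members (29.3%, against 16.4%). Library 9 did so in 41 (27.3%, against 17.2%) and library 5 in 39 (26.0%, against 24.7%). Libraries 1, 3, 4, 7 and 8 did so in 23 to 36 (15.3% to 24.0%, against 14.1% to 17.3%). In libraries 5 and 1 (15.3%, against 14.8%) the share of the members was near that of all genes. For 82 members (54.7%) at least 1 T-cell library lay above and at least 1 below the whole B-cell range, which held for 15% of all genes tested. A wide T-cell range was what the rule asked for.

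Grouped by the correlation of their levels over the 9 T-cell libraries, the members fell into 4 blocks, a division made after the values were seen. A block of 65 genes was low in library 6, 24 genes were high in library 6, 37 genes were low in library 5, and 24 genes were high in libraries 4, 5, 8 and 9. The median correlation between 2 genes of a block over T-cell libraries was 0.70, 0.74, 0.60 and 0.68 in that order, as the grouping requires. Over the 20 B-cell libraries, which did not enter the grouping, it was 0.23, 0.05, 0.16 and 0.02. The rule also favoured a small B-cell spread, so the gap between the classes in these correlations is a description of how the genes were chosen and grouped. The median over all pairs of the genes tested was 0.005 over T-cell and 0.009 over B-cell libraries, and all genes of a class share its libraries.

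**Figure D2:**
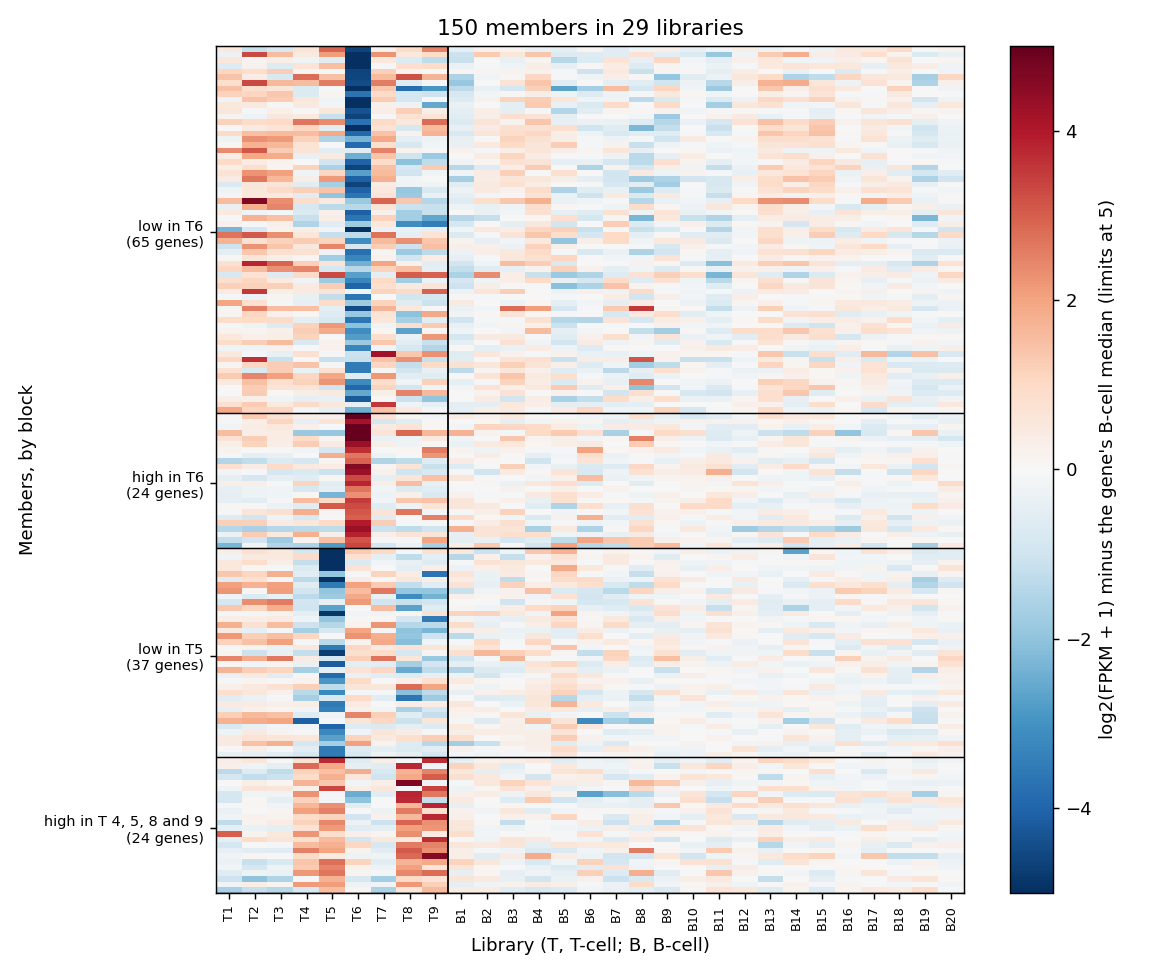
Rows are the 150 members in their 4 blocks and columns are the 9 T-cell (T) and 20 B-cell (B) libraries. Colour gives log2(FPKM + 1) minus the gene's own B-cell median, with colours limited at 5 to either side. The dark column sections belong to T6 in the first 2 blocks and to T5 in the third, and the last block is red in T4, T5, T8 and T9.

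The largest block, 65 genes, was low in T-cell library 6. The median FPKM over the block was 0.683 in that library. It was 30.3, 34.7, 36.2, 29.01 and 38.0 in T-cell libraries 1 to 5 and 33.8, 16.2 and 20.2 in libraries 7 to 9. In B-cell libraries it ran from 12.4 to 33.7, with a median of 20.5. Library 6 therefore lay below all 28 others, while the remaining T-cell libraries were inside the B-cell range or just above it. Per gene, library 6 differed from the median of the other T-cell libraries by a median of -3.77 log2 units, from -7.33 to -0.80. It was below every B-cell library for 59 of the 65 genes and under 1 FPKM for 35, of which 12 were listed at 0. The block holds abundant genes, with mean FPKM up to 3697.

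The gene with the largest excess of spread, ENSCAFG00000014175, belongs to this block. It stood at 96.5, 31.3, 39.4, 109, 529, 1.82, 79.2, 131 and 396 FPKM in T-cell libraries 1 to 9. In B-cell libraries it ran from 46.6 to 136 FPKM with a median of 69.5. Libraries 5 and 9 were above every B-cell tumour and libraries 2, 3 and 6 below, while the class means of log2(FPKM + 1) were nearly equal, at 6.25 and 6.14. Without library 6 the excess of the T-cell SD of ENSCAFG00000014175 was 1.03, against 1.83 with it.

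ENSCAFG00000007026 was more abundant. Its T-cell values were 302, 3648, 1100, 522, 1597, 4.48, 1760, 542 and 701 FPKM in libraries 1 to 9. B-cell values ran from 98.5 to 1306 FPKM with a median of 375. Libraries 2, 5 and 7 exceeded every B-cell library and library 6 was below all. ENSCAFG00000011474 was even in all but library 6: it stood at 388, 293, 332, 229, 177, 1.46, 379, 164 and 107 FPKM, against 96.9 to 538 FPKM in B-cell libraries (median 263). For ENSCAFG00000011474 the other 8 T-cell libraries all lay inside the B-cell range, and the excess of the T-cell SD over the B-cell SD dropped from 1.69 to 0.06 without library 6. Without the same library the excess of ENSCAFG00000007026 was 0.20.

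**Figure D3:**
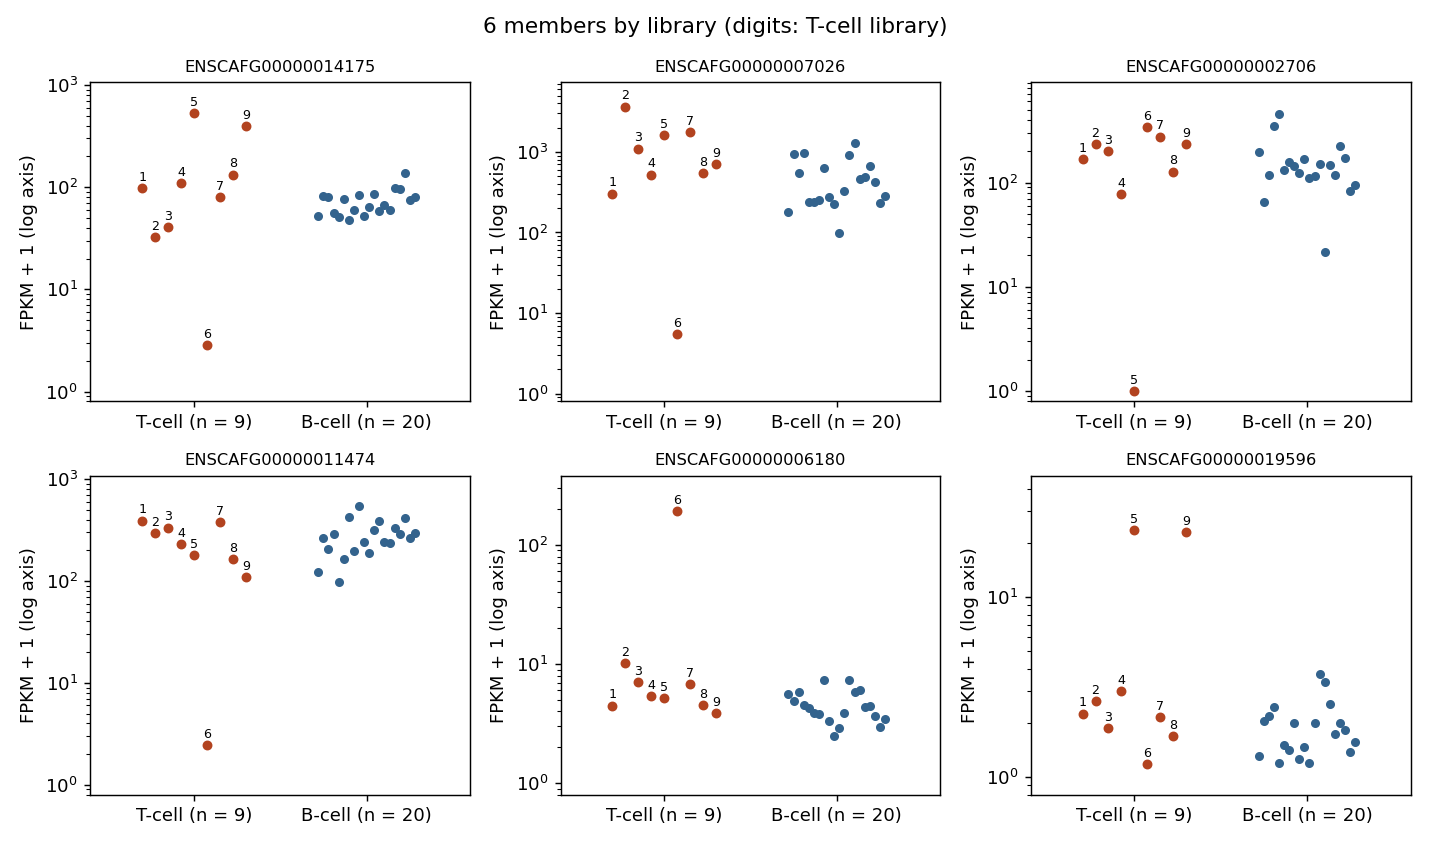
FPKM + 1 on a log axis for 6 members in the 9 T-cell libraries (red, numbered) and the 20 B-cell libraries (blue), 1 point per library. Library 6 is the lowest T-cell point of ENSCAFG00000014175, ENSCAFG00000007026 and ENSCAFG00000011474 and the highest of ENSCAFG00000006180, library 5 is the lowest of ENSCAFG00000002706, and libraries 5 and 9 are the highest of ENSCAFG00000019596.

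A second block of 24 genes ran the other way in the same library. Its median FPKM was 72.3 in T-cell library 6 and between 3.05 and 4.57 in the other 8 T-cell libraries, against 1.79 to 6.89 in B-cell libraries. The 8 T-cell libraries and the 20 B-cell libraries overlapped, and library 6 alone was apart. All 24 genes were highest in library 6 among T-cell tumours and above every B-cell library there. The difference from the median of the other T-cell libraries was 3.71 log2 units in the median gene, and at least 2.48 in each. The leading gene of the block, ENSCAFG00000006180, was named after its values were seen. It stood at 190 FPKM in library 6 and at 2.89 to 9.25 FPKM in the other T-cell libraries, against 1.51 to 6.403 FPKM in B-cell libraries. Without library 6 the excess of the T-cell SD of ENSCAFG00000006180 dropped from 1.31 to 0.021. In the block medians library 6 alone stood apart in both blocks, but single genes also left the B-cell range elsewhere. Of the 65 genes, 29, 25 and 22 lay above every B-cell library in libraries 2, 7 and 3. Of all genes tested, 16.4%, 14.1% and 14.2% did. In libraries 8 and 9, 17 and 13 of the 65 lay below (13.4% and 13.1% of all genes). Of the 24 genes, 4 lay above in each of libraries 2, 4, 5, 8 and 9 (15.5% to 24.7% of all genes).

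The block of 37 genes low in T-cell library 5 had a median of 6.02 FPKM there. In libraries 1, 2, 3, 6 and 7 the median was 54.7, 57.6, 58.8, 49.9 and 46.1 FPKM. It was 21.1, 22.9 and 28.4 FPKM in libraries 4, 8 and 9, below the B-cell range of 30.2 to 71.8 FPKM, as was library 5. In the block median the drop was therefore deepest in library 5 but shared in part by 3 others. Among T-cell libraries, 23 of the 37 genes were lowest in library 5 (21.8% of all genes tested). In library 6, 12 of the 37 were highest (20.1% of all genes tested). Per gene, library 5 differed from the median of the other T-cell libraries by a median of -3.06 log2 units, from -7.74 to 0.50, and lay below every B-cell library for 29 of the 37.

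Some of the lowest values of this block were exact zeros. For 6 members, all of this block, library 5 listed 0 while each of the other 28 libraries held at least 10 FPKM, from 10.4 to 173 FPKM. Among all gene IDs, 10 had this pattern in library 5, 1 had it in library 6, and 0 had it in any other library. A listed 0 in such a table can be a failed estimate, and these values are not read as absence. They were nevertheless kept in the ranking of the members, the block medians and the differences per gene. Of the first 10 members by excess of spread, 3 had this pattern, the first of them at rank 5. ENSCAFG00000002706 was close to this pattern without an exact zero, at 0.00591 FPKM in library 5. Its other T-cell values were 167, 231, 198, 76.8, 341, 275, 126 and 234 FPKM in libraries 1 to 4 and 6 to 9. B-cell values ran from 20.5 to 455 FPKM (median 137), so the other 8 T-cell libraries were all inside the B-cell range. Without library 5 the SD of ENSCAFG00000002706 was smaller over T-cell than over B-cell libraries, by -0.22.

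The last block, 24 genes, was raised in several T-cell tumours. Its median FPKM was 8.42, 18.6, 20.7 and 22.8 in T-cell libraries 4, 5, 8 and 9, all above the B-cell range of 1.08 to 3.30 FPKM. In libraries 1, 2, 3, 6 and 7 it was 1.77, 2.10, 1.63, 0.951 and 1.72 FPKM, below the B-cell median of 2.41 FPKM, and library 6 was under the whole range. Above every B-cell library lay 14, 18, 20 and 18 of the 24 genes in libraries 4, 5, 8 and 9, and 0 to 2 of them in each other T-cell library. Of all genes tested, 15.5%, 24.7%, 17.3% and 17.2% lay above in these 4 libraries. The block was formed on these T-cell values. For 6 of its 24 genes fewer than 5 B-cell libraries reached 1 FPKM, so these passed the filter only with the help of T-cell libraries. The leading gene, ENSCAFG00000019596, also named after its values were seen, did not follow all 4 libraries. It stood at 22.6 and 22.05 FPKM in libraries 5 and 9, at 2.01 and 0.693 in libraries 4 and 8, and at 0.178 to 1.66 in the rest, against 0.193 to 2.75 FPKM in B-cell libraries. With quantile normalization and with median-of-ratios scaling between libraries, library 6 stayed the lowest and the highest T-cell library of its 2 blocks, library 5 the lowest of its block, and libraries 4, 5, 8 and 9 above the B-cell range in the last block. The low end of the last block did change: after quantile normalization libraries 3, 7 and 6 were all under the B-cell range, at 1.25, 1.297 and 1.32 FPKM.

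**Figure D4:**
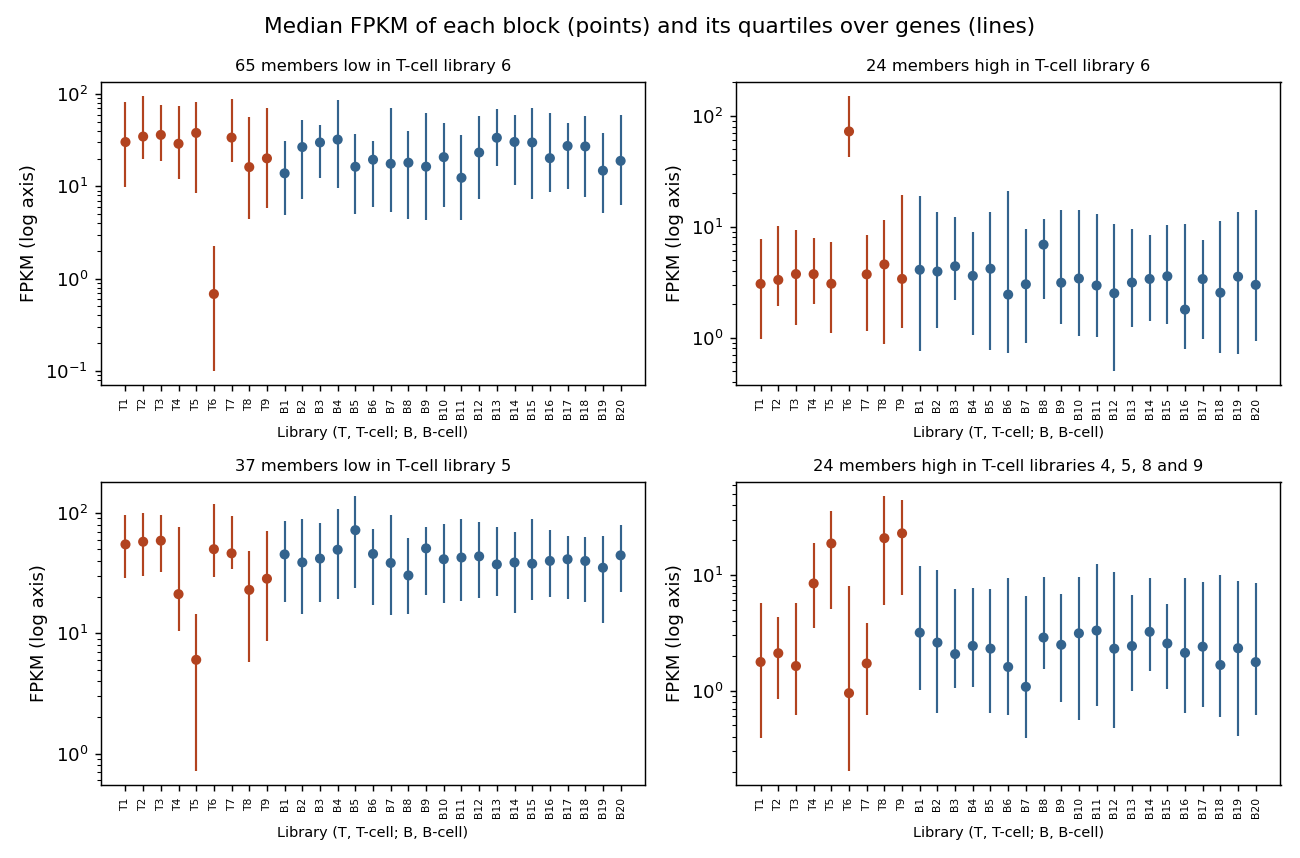
Median FPKM over the genes of each block (points) with the lower and upper quartile over genes (lines), on a log axis, in the 9 T-cell (red) and 20 B-cell (blue) libraries. T6 is below all others in the first panel, at 0.683 FPKM, and above all in the second, at 72.3 FPKM; T5 is lowest in the third, at 6.02 FPKM, and T4, T5, T8 and T9 lie above all B-cell libraries in the fourth.

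Libraries 4, 5, 8 and 9 had the 4 lowest summed FPKM of the T-cell group, at 441604, 319067, 398760 and 425879, where the others had 474343 to 530668. They also had the lowest share of FPKM in the 10 most abundant genes, at 6.66%, 3.39%, 4.67% and 6.36% against 7.80% to 9.64%. The part of these library measures in the last 2 blocks was not tested. In the labels, libraries 4, 5, 8 and 9 were a neutered female, a neutered male, a neutered female and an intact male. Their dogs were aged 10.3, 4.5, 8.5 and 6.3 years at diagnosis. Libraries 1, 2, 3, 6 and 7 were 4 females, 2 of them intact, and a neutered male, aged 8.7 to 11.9 years. Libraries 5, 9 and 8 were thus from the youngest dogs of the T-cell group, and library 4 was not.

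How far the list rests on single tumours was measured by repeating the rule without each T-cell library. Without library 6 the rule chose 62 of the 150 members again, and without library 5 it chose 103. Without any other single T-cell library it chose 115 to 135. Of the 65 and 24 genes in the blocks marked by library 6, 12 and 1 were chosen again without it. Of the 37 genes low in library 5, 15 were chosen again without that library. Of the 24 genes in the block raised in 4 libraries, 11 to 21 were chosen again whichever library was left out, with 11 without library 8. The blocks were formed and named on these same T-cell values, so differences between them in these counts are partly set by the grouping. Without libraries 5 and 6 together, 54 members were chosen again. The median T-cell SD of the 150 was then 1.05, against 0.374 for all genes tested. The T-cell SD was still above the B-cell SD for 121 members (80.7%, against 44.7% of all genes tested) and no longer so for 29. The members were chosen on SDs that took in the remaining libraries too. Both gaps to all genes are therefore partly built in and are a description only.

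**Figure D5:**
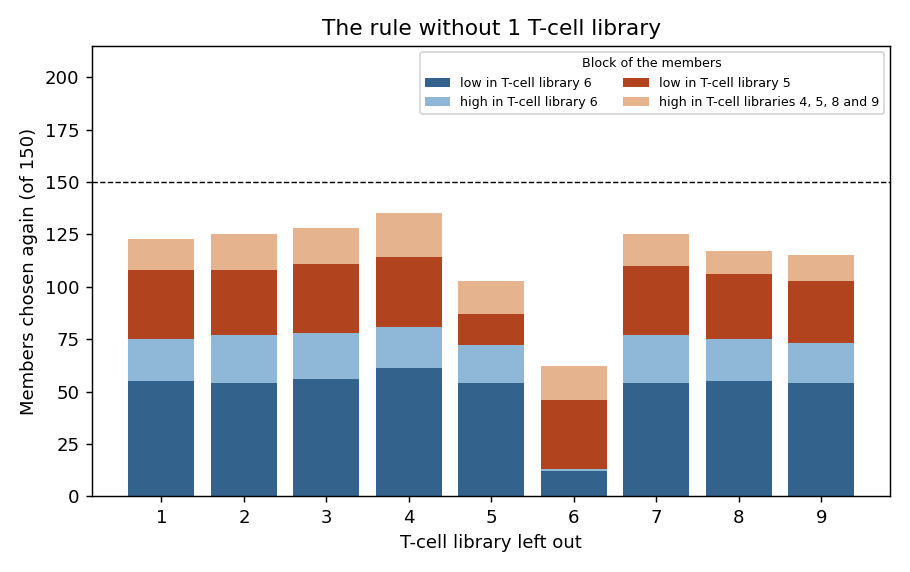
Bars give how many of the 150 members (dashed line) the rule chose again when the T-cell library on the horizontal axis was left out, coloured by block. The lowest bar is for library 6, with 62 members, of which 12 and 1 belong to the blocks low and high in that library; library 5 follows with 103.

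Sex, neuter status and age of the dog are in the labels and were not used by the rule. They were tested among the 9 T-cell tumours with limma, a linear model that shares information on variance between genes, with adjustment by Benjamini-Hochberg over all 11547 genes that varied there. For sex, with neuter status in the model, 0 members passed (0% of all genes), and the lowest limma adjusted p was 0.862. An unadjusted p under 0.05 was reached by 8 of the 150 members and 374 of the 11547 genes. These counts moved widely with single tumours, from 2 members and 99 genes without library 5 to 40 members and 1497 genes without library 7, where the lowest limma adjusted p was 0.0577. For neuter status, with sex in the model, 0 members passed (0% of all genes), and the lowest limma adjusted p was 0.819. Here 20 of the 150 members and 652 of the 11547 genes were under an unadjusted 0.05. The counts were 2 and 213 without library 6 and 55 and 1746 without library 1. For age, with both in the model, 0 members passed (0% of all genes), and the lowest limma adjusted p among them was 0.731. An unadjusted 0.05 was undercut by 33 of the 150 members and 761 of the 11547 genes. Without library 7, from the oldest dog at 11.9 years, 5 members and 131 genes were left, but the precision in age also fell. The slope of the median member was then 0.34 per year with a 95% half-width of 1.55, against 0.10 and 0.49 with all 9 libraries. Without library 5, from the youngest dog at 4.5 years, 26 members and 445 genes were left, and without library 6 the counts were 46 and 944. Members of a block move together, so such counts are not counts of independent genes. The rule also chose the members for a wide spread over the same 9 T-cell libraries. Counts of members beside those of all genes, here and below, are therefore not independent of the rule and are a description only.

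The precision among 9 tumours was low for these genes. In the tests of sex and neuter status the 95% interval of a log2 difference, not adjusted, was ± 2.01 for the median member and ± 0.76 for the median of all genes tested. For age it was ± 0.49 and ± 0.19 per year. Estimates smaller than these limits could not be told from 0 in the median member. In ENSCAFG00000019596 the log2 change per year of age was -0.45 ± 0.12 (SE; limma adjusted p = 0.731), and the log2 difference of females from males was -2.39 ± 0.74 (SE; limma adjusted p = 0.862).

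The result for neuter status changed when 1 tumour was left out. Without T-cell library 1, from an intact female, 4 of 11547 genes passed, 2 of them members. These were ENSCAFG00000006538 and ENSCAFG00000016286, both of the block high in library 6 and named after their values were seen. Libraries 6 and 9 were then the only ones from intact dogs. The block was formed on high values in library 6, which this contrast uses again. Each of the 9 T-cell libraries was left out in turn, and the p-values are not adjusted for that. ENSCAFG00000006538 stood at 249 and 344 FPKM in libraries 9 and 6, from intact dogs, and at 21.2 to 42.3 FPKM in the 6 libraries of neutered dogs. Library 1, the third intact dog, was at 27.2 FPKM. ENSCAFG00000016286 stood at 55.9 and 121 FPKM in libraries 9 and 6, at 4.24 to 9.18 FPKM in those of neutered dogs, and at 9.65 FPKM in library 1. With all 9 libraries the log2 difference of neutered from intact dogs was -2.07 ± 0.68 for ENSCAFG00000006538 and -2.29 ± 0.65 for ENSCAFG00000016286 (SE; limma adjusted p = 0.819 for both). Without library 1 it was -3.20 ± 0.33 and -3.38 ± 0.29 (SE; limma adjusted p = 0.0337 and 0.0167). Library 1 was thus inside the range of the neutered dogs in ENSCAFG00000006538, where the groups overlapped when it was included. In ENSCAFG00000016286 it lay just above that range, at 9.65 against at most 9.18 FPKM, and far below libraries 9 and 6.

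Over all 29 tumours, with class in the model, 0 members passed for sex (0.00866% of all 11552 genes, a single one), for neuter status (0%) and for age (0%). The lowest limma adjusted p among members was 0.400 for sex, 0.378 for neuter status and 0.899 for age. An unadjusted p under 0.05 was reached by 12, 23 and 5 of the 150 members and by 1263, 1276 and 580 of the 11552 genes in that order. With 1 T-cell library left out the members' counts ran from 4 (without library 5) to 22 (without library 7) for sex, from 6 (without library 6) to 34 (without library 1) for neuter status and from 1 (without library 5) to 6 for age. The 95% interval of the median member was ± 0.70 in log2 for sex and ± 0.87 for neuter status.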

How the data were processed

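RNA was sequenced from 29 canine lymphomas. TopHat 1.4.1, Cuffdiff, FastQC 0.11.2 and the build CanFam3.1 are named in the submitters' processing notes. How each was used, and whether libraries were scaled to each other, is not given in these sources. The authors deposited FPKM per Ensembl gene ID. FPKM depends on gene length and on what else a library holds. Of 78 value columns, the 29 named by a sample title were used and 49 that match no sample were not used. Libraries were numbered within a class in accession order.

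Values were analysed as log2(FPKM + 1), a pseudocount of 1 that compresses low values. Members were chosen by the rule given in the report. Blocks came from average linkage on 1 minus Pearson r over the T-cell libraries, divided into 4. Tests in R 4.3.3 used limma 3.58.1 (trend and robust options on, both directions, Benjamini-Hochberg adjustment, threshold 0.05); 5 genes constant over the T-cell libraries were left out there. Relative depth came from the most frequent ratio of FPKM below 0.2 between libraries. Scripts were tested on data simulated with limma's moderated variances. The other steps ran in Python 3.11.15 (pandas 2.3.3, numpy 2.4.6, matplotlib 3.10.9, scipy 1.17.1).

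Members, blocks and tests were chosen with earlier results of these data known. The rule for named genes took, without symbols, the 2 members with the largest excess of T-cell SD among those with the higher T-cell mean and the 2 among those with the higher B-cell mean. Planned gene lists and cell type markers need symbols and were not used. Other pseudocounts, filters, scalings, covariates and left-out libraries were tried as alternatives.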

Additional observations from a re-analysis of the deposited data

Results flagged for a closer look

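Dixon's gap, the distance of the most extreme library from the next one as a share of the whole range, was read over the 9 T-cell libraries on the log2(FPKM + 1) scale for the 6 genes and 4 block medians described, and on their own scale for 5 library measures. Of these 15 series of values 8 had a library past the 95% limit. The chance rate of about 1 in 20 does not apply to this count. The genes were chosen for a wide T-cell spread, the blocks were formed on the same T-cell values and named for their extreme library, and the number of members under 1 FPKM is taken over the same genes. Gaps past the limit were found in 63 of the 150 members (42.0%), against 15.9% of all genes tested.

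T-cell library 6 stood apart low in ENSCAFG00000007026, at 4.48 FPKM, in ENSCAFG00000011474, at 1.46 FPKM, and in the median of the 65 genes low in that library, at 0.683 FPKM. It stood apart high in ENSCAFG00000006180, at 190 FPKM, and in the median of the 24 genes high there, at 72.3 FPKM. In the same library 48 members were under 1 FPKM, against 8 to 22 in the other T-cell libraries. T-cell library 5 stood apart low in ENSCAFG00000002706, at 0.00591 FPKM, and in the median of the 37 genes low there, at 6.02 FPKM. ENSCAFG00000014175, ENSCAFG00000019596, the median of the block raised in 4 libraries, and summed FPKM, relative depth, the share of the 10 most abundant genes and the members' share of FPKM had no such library.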

How the results depend on the processing

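How many of the 150 members the rule chose again depended on the setting. It was 120 after quantile normalization, 132 with median-of-ratios scaling, 120 where genes needed a mean of 5 FPKM and 103 in libraries whose label has a space. It was 74 with a pseudocount of 0.1, 78 with a pseudocount of 5, 64 without a filter, 62 with a limit of 0.5 on the class means, 41 with the median absolute deviation, 46 in neutered dogs and 54 without T-cell libraries 5 and 6, a setting added after the values were seen. Leaving out 1 T-cell library gave 62 to 135. A limit of 0.5 removes genes by construction. The settings with neutered dogs only and without T-cell libraries 5 and 6 both lack library 6. Without library 6 alone, 62 were chosen again. The cause of the changes other than that of the limit was not tested. The median T-cell SD of the members, 1.51, was 1.198 to 1.564 with 1 T-cell library left out and 1.05 without libraries 5 and 6. The SD difference of the 6 named genes changed sign in 1 of 78 alternatives, to -0.22 for ENSCAFG00000002706 without T-cell library 5; leaving out each T-cell library gave -0.2159 to 1.883 for this gene. For neuter status among T-cell tumours, leaving out 1 library gave 0 to 4 genes and 0 to 2 members, above 0 only without T-cell library 1. For sex over all tumours, 2 genes passed after quantile normalization, with sex and class alone, and where genes needed a mean of 5 FPKM, and 1 to 2 with 1 T-cell library left out (2 without library 7 or 8). No other alternative gave a member past the threshold for sex, neuter status or age. Complete linkage gave blocks of 68, 49, 24 and 9 genes: it kept 60 of the 65 genes low in library 6 together and joined 21 of the 24 high there with 28 of the 37 low in library 5. The block raised in 4 libraries was split into 16 and 8 genes, and the complete-linkage block of 24 holds 16 of them with 8 genes of other blocks. No paired analysis was possible because the labels give no replicate numbers. Values near 0 FPKM are uncertain because the depth behind them is unknown.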
